A study of Caenorhabditis elegans with 8 samples.

Results

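The regions described here lie in long, named genes of the nematode Caenorhabditis elegans and were reported by the authors as specific to a strain with FLAG-tagged MSTR-1. A region was taken when the RefSeq WBcel235 protein-coding gene with which it shared most bases carried a lower-case gene name, such as unc-52, and spanned at least 5000 bp. Of 1207 regions in the deposited list, 394 met this rule, in 218 genes. In 26 of the 394, a second protein-coding gene covered the region equally, so these regions are described apart. The remaining 368 regions, in 199 genes, have 1 gene of largest overlap and carry the results. Of the other regions, 611 lay in named genes under 5000 bp, 194 in genes without a gene name and 8 in no protein-coding gene.

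RNA that copurified with the FLAG tag was sequenced by RIP-seq, in which an antibody against a protein pulls down the protein with the RNA bound to it or crosslinked near it. The tagged strain, WD656, carries on chromosome I the allele on49 of F22D6.2, which puts 3xFLAG on MSTR-1 at the protein's own gene, so the gene's own promoter drives it. The comparison strain, N2, is the wild type and has no FLAG. Young adults of both strains were kept at 25 °C, crosslinked for 30 min in 2% formaldehyde and lysed whole, and each strain had a RIP and an input fraction with 2 biological replicates, 8 samples in all. The deposited list has 1 set of values per region, and every region name refers to RIP replicate 2 of the tagged strain. No value here therefore has a replicate error, no test between libraries could be made, and depth per sample was not analysed here.

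Long genes in the worm often encode very large structural proteins. Filamin, spectrin, ankyrin and spectraplakin form the skeleton beneath the cell membrane, the fibrous organelles tie muscle through the epidermis to the cuticle, and perlecan and type IV collagen build basement membranes. A long span can also come from long introns, as in many genes of kinases, transcription factors and neuronal proteins, since a span counts introns as well as exons. In RIP-seq, a region marks a stretch of transcript with more reads in the pulldown than in the authors' control, so 1 long transcript can carry several regions.

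Most of these genes carried 1 or 2 regions, and 6 genes carried 5 or more. There were 106 genes with 1 region, 50 with 2, 22 with 3 and 15 with 4. Both pat-12 (T17H7.4), a fibrous organelle protein, and vab-10 (ZK1151.1), a spectraplakin that crosslinks actin and microtubules, had 5. The ankyrin gene unc-44 and the HECT ubiquitin ligase gene hecd-1 had 6, and the filamin gene fln-1 and the perlecan gene unc-52 had 7. The count of genes with at least 4 regions, 21, fell to 9 when regions under 500 bp apart were joined and to 5 at a fold of at least 2. After joining, unc-44 had 2 regions, vab-10 had 3, pat-12 had 5, and hecd-1, fln-1 and unc-52 had 6 each. Of all 2319 long named genes in the gene table, 199 (8.58%) had a region and 93 (4.01%) had at least 2. Among named genes under 5000 bp, 519 of 8950 (5.8%) had one.

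**Figure D1:**
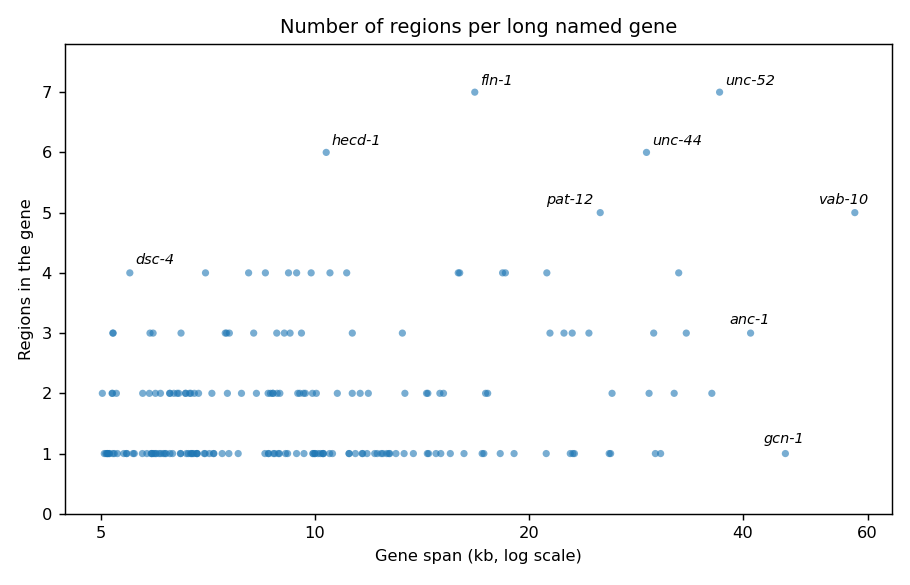
Number of regions in each of the 199 genes (vertical axis) against the gene's span in kb (horizontal axis, log scale), 1 point per gene. The genes with 6 or 7 regions span from 10.4 kb (hecd-1) to 37.1 kb (unc-52), and gcn-1 has 1 region in 45.96 kb.

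The share of genes with a region was highest among the longest genes. It was 75 of 1049 (7.15%) at spans from 5000 up to 7500 bp and 41 of 521 (7.87%) up to 10000 bp. It was 57 of 588 (9.69%) from 10000 up to 20000 bp and 26 of 161 (16.1%) above that. In the same order, the regions numbered 0.178, 0.187, 0.128 and 0.146 per 10 kb of span over all long named genes of the class, with or without a region. The median span was 7917 bp over all long named genes, 9057 bp over those with a region and 15917 bp over the 21 genes with at least 4. Among genes with a region, where a short span alone gives a high density, highest per length was dsc-4 (K02D7.4), the microsomal triglyceride transfer protein that loads lipid onto yolk particles, with 4 regions in 5489 bp, or 7.29 per 10 kb. Then came hecd-1 with 5.78 per 10 kb, the yolk protein gene vit-3 and the sodium pump subunit gene nkb-3 with 5.77 each, and ogdh-1 (T22B11.5), a subunit of the 2-oxoglutarate dehydrogenase of the citric acid cycle, with 5.70. This order depended on regions that lay close together. With regions under 500 bp apart joined, dsc-4 and ogdh-1 had 2 regions each, while hecd-1 kept 6. Gaps between regions were 267 and 359 bp in vit-3, and the smaller gap in nkb-3 was 266 bp. At the other end stood gcn-1 (Y48G9A.3), a regulator of translation under amino acid shortage, with 1 region in 45964 bp. Its fold was 2.39 from 41 reads.

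The authors' fold, a ratio of pulldown over control at the region's highest point (its summit), was modest. Over the 368 regions it had a median of 2.15 (exact 95% interval 2.13 to 2.21), quartiles of 1.86 and 2.49, and a range of 1.19 to 5.25. This interval treats the regions as independent, although many share a gene, and it holds no difference between replicates. The median was 2.00 for named genes under 5000 bp, 2.28 for genes without a name and 2.07 for all other regions. Folds of 2 or more occurred in 240 of the 368 regions (65.2%), against 705 of all 1207 (58.4%). Folds of 3 or more occurred in 30 (8.15%), against 10.7% of all regions. The share of the members was thus above that of all regions at a fold of 2 and below it at a fold of 3. The authors' −log10 q had a median of 3.89 and ran from 1.30 to 33.96.

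Coverage in long named genes was lower than in shorter named genes. The number of reads at the summit, solved from the fold and the p-value of the deposited list, had a median of 40.5 (range 26 to 628), against 73 for named genes under 5000 bp. The control level had a median of 16.6 reads, against 34.5 there. The lowest control level in the list was 13.49 reads, and 142 of the 368 regions (38.6%, exact 95% interval 33.6 to 43.8) sat at this floor, against 92 of 611 (15.1%) in shorter named genes. A control level above 100 was found for 10 of the 368 (2.72%) and for 178 of the 611 (29.1%). With the 26 shared regions counted it was found for 22 of 394 (5.58%), and shared regions were not set apart among the 611. Genes without a name, of any span, were closer to the members, with a median of 48 reads, a median control level of 19.1, 66 of 194 (34.02%) at the floor and 17 (8.76%) above 100. Low coverage was thus not a trait of long named genes alone. At the floor the median fold was 2.35 for the members, 2.48 for shorter named genes and 2.42 for genes without a name. Above a control level of 100 it was 1.57 for the members, 1.56 for the shorter named genes and 1.54 for genes without a name. The median fold was thus higher at the floor than above 100 in each class. This relation is partly built in, because the control level was solved from the fold. In addition, no listed region had fewer than 26 reads, which sets a lowest possible fold at the floor. The part of coverage in the difference between classes was not tested. Intervals on reads are exact 95% Poisson intervals and cover no more than counting error, and several reads can stem from 1 molecule. Intervals on medians and shares treat regions or genes as independent draws, although 262 of the 368 regions share a gene with another. No interval covers the difference between replicates.

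**Figure D2:**
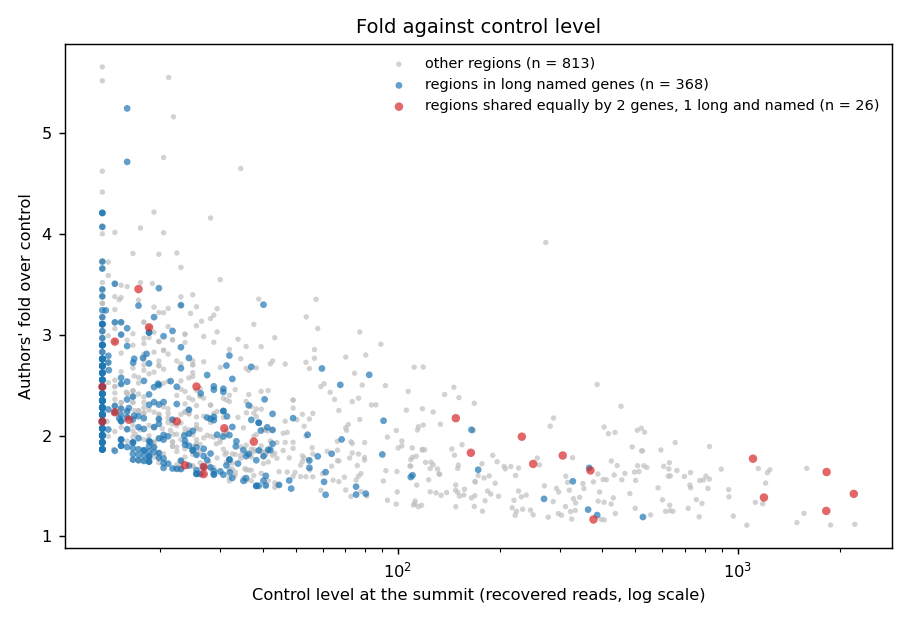
Authors' fold (vertical axis) against the control level at the summit in recovered reads (horizontal axis, log scale), 1 point per region: 368 regions in long named genes, 26 regions shared equally by 2 genes of which 1 is long and named, and 813 other regions. The members crowd at the left edge, where 142 share the floor of 13.49 reads, and 10 lie above a level of 100.

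The single region with the highest fold was in hpo-34 (F29G6.3). It lay on chromosome X from 11518743 to 11519048, with a fold of 5.25 from 88 reads (70.6 to 108.4) over a control level of 15.96, and its −log10 q of 33.96 was the largest of all members. The 2 other regions of hpo-34 had folds of 1.89 (64 reads) and 2.16 (81 reads). The read intervals of the 3 summits overlap, and the control level at the other 2 was 33.3 and 37.0.

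The plasma membrane calcium pump gene mca-3 (Y67D8C.10) came next. Its region on chromosome IV from 3119385 to 3126139 had a fold of 4.72 from 79 reads (62.5 to 98.5) over 15.96. Its other regions had 2.54 (47 reads) and 1.62 (43 reads), so mca-3 had the widest spread of folds within any gene, with a ratio of 2.91 between highest and lowest. The ratio was 2.77 in hpo-34 and 2.61 in ell-1.

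Below these, rle-1 (M142.6) and ell-1 (Y24D9A.1) each had a region with a fold of 4.21 from 60 reads (45.8 to 77.2) at the control floor. The gene rle-1 encodes a ubiquitin ligase and ell-1 a homolog of the ELL transcription elongation factors. The region of epc-1 (Y111B2A.11), a homolog of Enhancer of Polycomb and part of a histone acetyltransferase complex, had 4.07 from 58 reads. That of dhs-3 (T02E1.5), a short-chain dehydrogenase found on lipid droplets, had 3.73 from 53 reads, but it also overlapped gla-3. Then came unc-44 with 3.66, pkg-2 (C09G4.2), a cGMP-dependent protein kinase, with 3.51, and sms-1 (H21P03.3), a sphingomyelin synthase, with 3.46. The regions of pat-12, with 3.45, pat-3 (ZK1058.2), the beta integrin of muscle attachment sites, with 3.38, and kola-3 (C01B10.6), with 3.30, completed the 12 highest genes. Of these 12 regions, 7 were at the control floor.

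Of the 8 genes with the largest −log10 q, 4 were in the metabolism list, which held 23 of all 199 genes. In hpo-34 and mca-3 the values of 33.96 and 27.4 came from 88 and 79 reads, and the genes below had more reads. The region of pmt-2 (F54D11.1), a phosphoethanolamine methyltransferase of phosphatidylcholine synthesis, had a fold of 2.60 from 216 reads (188 to 247) and a −log10 q of 32.2. The 2 regions of pck-2 (R11A5.4), a phosphoenolpyruvate carboxykinase, had folds of 1.66 and 2.06 from 287 and 340 reads, with −log10 q up to 30.6. The acetyl-CoA carboxylase gene pod-2 reached 25.1 and the neprilysin gene nep-17 (F54F11.2) 23.6, with 161 and 171 reads. The yolk protein gene vit-3 (F59D8.1) had 30.1 at a fold of 1.68 from 615 reads. The highest control level of all members, 526.7 reads, was at another region of vit-3, with a fold of 1.19. Yolk protein genes vit-3, vit-4 and vit-5 are near-identical in sequence, and the sources used here do not say how reads that match several copies were counted, so their values are uncertain.

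Regions in long genes were also wide. Their median width was 842 bp (233 to 14654), against 613 bp in shorter named genes and 535 bp in genes without a name. There were 39 regions wider than 3000 bp (10.6%), against 9 in shorter named genes, where no region inside its gene can exceed 5000 bp, and 3 in genes without a name. The widest, of 14654 bp, was in egl-4 (F55A8.2), a cGMP-dependent protein kinase, on chromosome IV from 1848117 to 1862770, and had a fold of 2.19 from 64 reads. The next, of 10964 bp, was in tra-1 (Y47D3A.6), the Gli-type transcription factor that directs female development, with a fold of 2.21 from 31 reads. That of nhr-66 (T09A12.4), a nuclear receptor, was 9823 bp wide and took up 95.6% of the gene, with 2.90 from 41 reads. Those of pct-1 (C07G1.3), a cyclin-dependent kinase, and nrfl-1 (C01F6.6) were 9744 and 8131 bp wide. The L1-type adhesion gene sax-7 held 1 of 7256 bp, with 2.90 from 41 reads. Whether these stretches cover exons, introns or both was not analysed here, since the gene table gives no exons.

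Regions of 1 gene differed in fold to varying degrees. Over the 93 genes with at least 2 regions, which held 262 regions, the median ratio of highest to lowest fold was 1.28. It was at least 1.5 in 24 of these genes. Over all 368 regions the upper quartile of fold was 1.33 times the lower, and regions of 1 gene were not tested against regions of different genes. The 4 regions of klp-12 (T01G1.1), a kinesin, had folds of 2.48, 2.76, 2.55 and 2.69 from 35, 39, 36 and 38 reads, all at the control floor. The 4 regions of brc-1 (C36A4.8), the worm BRCA1 ortholog, had folds of 2.00, 1.93, 2.00 and 2.14 from 27 to 30 reads, also all at the floor. In klp-12 and brc-1 the regions therefore differed by less than their counting intervals. In ell-1 they did not all lie so close, with 2.18, 4.21, 1.76 and 1.61 from 36, 60, 57 and 50 reads. The control level at the last 3 was 13.49, 31.9 and 30.6, so the regions with 60 and 57 reads differed little in reads and by over 2-fold in control level. Neighbouring regions of a gene lay a median of 997 bp apart over 169 pairs, and 40 pairs were under 500 bp apart. The regions covered a median of 16.5% of the gene's span (1.35% to 95.7%), with at least 50% covered in 33 genes and under 10% in 71.

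Over all regions, the upper part of the gene span held the most summits and the middle the fewest, but this order depended on how regions were counted. Positions are given from the end with the lower coordinate, because the gene table gives no strand, so they do not tell the start of a gene from its end. Of the 368 summits, 122 (33.2%) lay in the lower part of the span, 99 (26.9%) in the middle and 147 (39.9%) in the upper part, each part being 33.3% of the span. The middle part held 23 of 106 summits (21.7%) in genes with 1 region and 76 of 262 (29.01%) in genes with more. At a fold of at least 2, the lower and the middle part held 71 summits each and the upper 98. With each gene counted once by its mean position, which lies nearer the middle where a gene has several summits, the middle held the most: 75 of 199 genes, against 55 and 69. In genes of at least 20000 bp the 3 parts held 25, 21 and 23 of 69. Within 500 bp of an end lay 45 summits (12.2%), 22 near the lower end and 23 near the upper, and this zone made up 10.5% of a span on average. The median distance to the nearer end was 2174.5 bp.

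**Figure D3:**
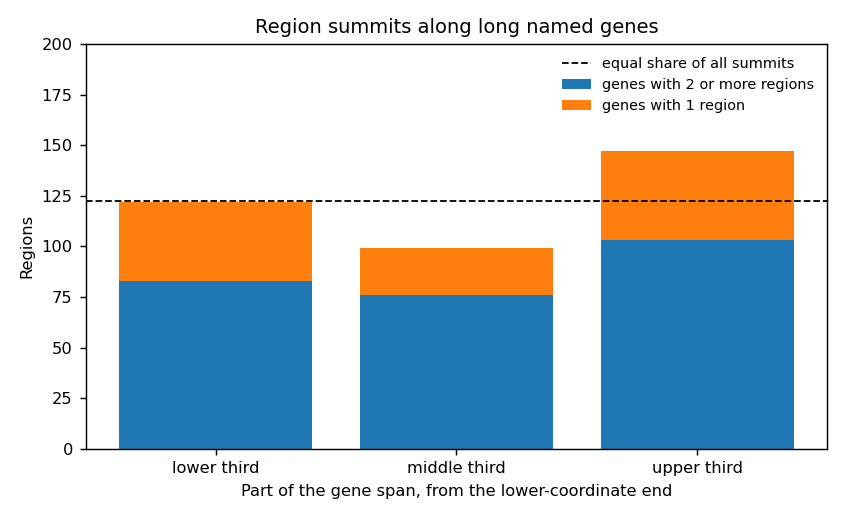
Number of region summits (vertical axis) in the lower, middle and upper part of the gene span, counted from the lower-coordinate end, stacked for the 93 genes with 2 or more regions (262 summits) and the 106 genes with 1. The dashed line is an equal share of all 368 summits, and the bars stand at 122, 99 and 147.

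Among genes with at least 3 regions, most had summits in more than 1 part of the span, and a minority had them in all 3. Placement at random was not compared. Of 43 such genes, 16 had a summit in each of the 3 parts of the span, 22 in 2 parts and 5 in 1 part. The distance from the first to the last summit had a median of 56.9% of the span (23.5% to 93.3%). The 5 genes with all summits in 1 part were pat-12, unc-44 and vit-3, in the lower part, and ell-1 and ctsa-2, in the upper. The gene ctsa-2 is named here after its values were seen.

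**Figure D4:**
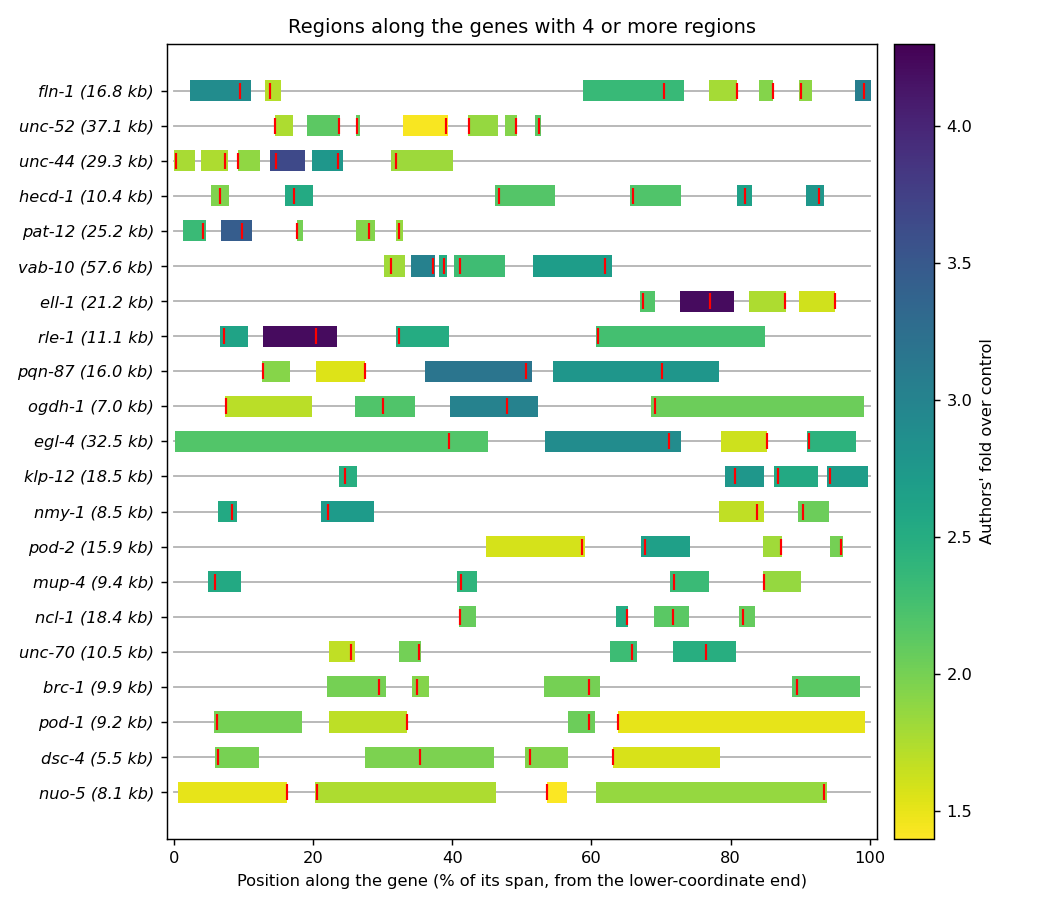
Regions along the 21 genes with 4 or more regions, each gene drawn from 0 to 100% of its span from the lower-coordinate end (horizontal axis), with boxes for regions coloured by the authors' fold and a red tick at each summit. All 6 regions of unc-44 lie below 41% of the gene, the 4 summits of ell-1 lie above 67%, and the 6 summits of hecd-1 run from 6.62% to 92.6%.

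The filamin gene fln-1 (Y66H1B.2), on chromosome IV from 359223 to 376015, encodes a crosslinker of actin filaments that anchors them at the membrane. From the lower to the upper end its 7 regions had folds of 2.90, 1.72, 2.35, 1.79, 1.93, 1.90 and 3.07. The summit reads were 41, 59, 33, 34, 37, 36 and 51, in the same order. Its highest regions were thus those nearest the 2 ends, at 9.46% and 99.1% of the span, and the largest gap between neighbours was 7271 bp.

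The perlecan gene unc-52 (ZC101.2), on chromosome II from 14647321 to 14684456, encodes the basement membrane proteoglycan to which body wall muscle attaches. Its 7 regions had folds of 1.75, 2.13, 2.08, 1.42, 1.86, 1.94 and 2.13, from 66 to 97 reads in all but the fourth. That region, with the lowest fold of the gene, had the most reads and the highest control level, 80.4. Its summits ran from 14.6% to 52.5% of the span, with 0 in the upper part.

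The ankyrin gene unc-44 (B0350.2), on chromosome IV from 5975557 to 6004857, encodes adaptors that link membrane proteins to the spectrin skeleton. Its 6 regions had folds of 1.78, 1.76, 1.88, 3.66, 2.76 and 1.82 from 36, 49, 49, 52, 39 and 52 reads. The fold of 3.66, from 5979592 to 5981101, was at the control floor, and the region with equal reads and a fold of 1.82 had a control level of 28.1. All summits lay between 0.297% and 31.9% of the span.

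In hecd-1 (C34D4.14), on chromosome IV from 7134346 to 7144720, the folds were 1.96, 2.54, 2.18, 2.19, 2.65 and 2.76 from 41, 56, 61, 39, 39 and 48 reads. Each part of the span held 2 of its summits, so hecd-1 was the most evenly filled of the genes with at least 6 regions. In pat-12, on chromosome III from 727207 to 752426, the folds were 2.33, 3.45, 2.00, 1.93 and 1.86 from 49, 49, 28, 27 and 26 reads. All 5 summits lay in the first 32.3% of its 25220 bp, and 4 were at the control floor. In vab-10, on chromosome I from 11747424 to 11804991 and the longest member at 57568 bp, the folds were 1.82, 3.04, 2.50, 2.30 and 2.70 from 67, 68, 51, 85 and 86 reads. Its summits lay between 31.2% and 62.0% of the span.

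By function, genes of the membrane skeleton and fibrous organelles and genes of metabolism most often had a region. The long named genes were sorted into 14 lists of known function, which can share a gene. They held 124 of the 199 genes, and 75 were in no list. In 10 of the 14 lists the share of genes with a region was above the 8.58% of all long named genes. Genes in any list had a region more often (10.7%) than genes in none (6.47%), and 6 of the 14 lists were above the 10.7%. The lists were drawn up by hand from gene names and are not complete: egl-4, pkg-2 and pct-1, all kinases, are in none. Earlier results of these data were known when the lists were drawn up. The shares and their intervals therefore describe these lists and do not test a function. Worms were lysed whole, so fewer cells of a type and less RNA per cell cannot be told apart. How strongly each gene is expressed was not measured here, so the part of expression in these shares was not tested.

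**Figure D5:**
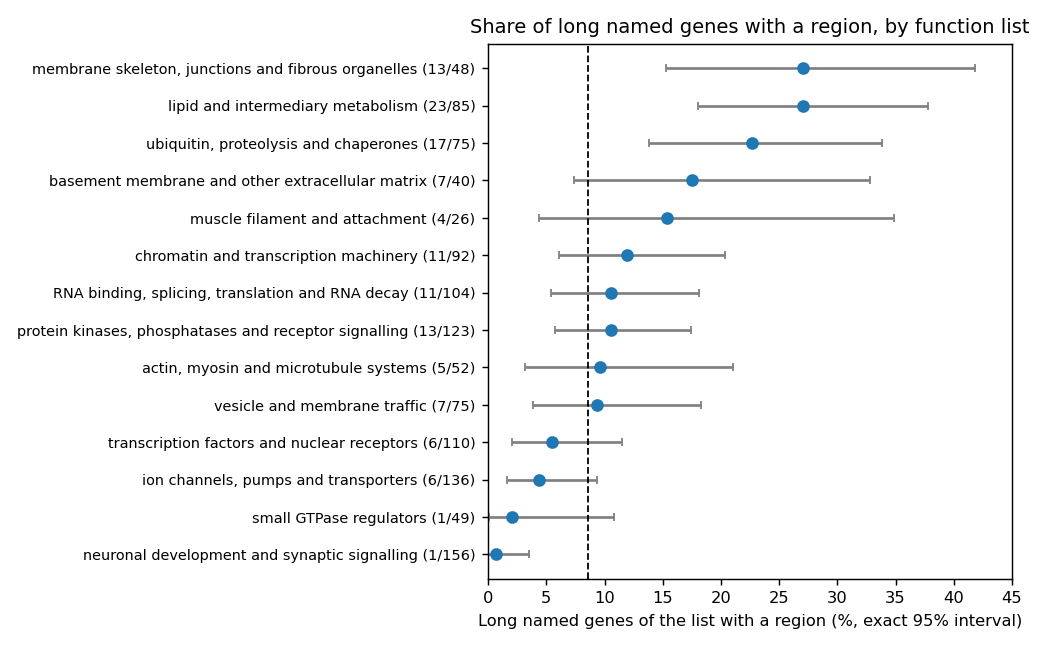
Percent of the long named genes of each function list that have a region (points, horizontal axis), with exact 95% binomial intervals (bars) and the counts beside the list's name. The dashed line is the 8.58% of all long named genes, and the lists run from 27.1% for the membrane skeleton to 0.641% for neuronal genes.

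In the membrane skeleton, junction and fibrous organelle list, 13 of 48 genes (27.1%, exact 95% interval 15.3 to 41.8) had a region, 10 had at least 2, and the 44 regions had a median fold of 2.30. Long genes of this list had a median span of 13780.5 bp, against 7917 bp over all long named genes. After unc-44, fln-1, pat-12 and vab-10 came mup-4 (K07D8.1) of the fibrous organelles, with folds of 2.55, 2.42, 2.33 and 1.85. The beta spectrin gene unc-70 (K11C4.3) had 1.67, 2.02, 2.31 and 2.48. Both beta spectrin and its partner alpha spectrin, spc-1, thus had regions, spc-1 with 1.81 and 2.14. The gene sma-1, entered in this list beside them, was not among the 13 genes. The gene spc-1 is named here after its values were seen.

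In the lipid and intermediary metabolism list, 23 of 85 genes (27.1%, 17.99 to 37.8) had a region, 12 had at least 2, and the 46 regions had a median fold of 2.00. The genes ogdh-1, pod-2 (W09B6.1), dsc-4 and nuo-5 (Y45G12B.1), a subunit of respiratory complex I, had 4 regions each. Folds were 1.70, 2.20, 3.02 and 2.06 in ogdh-1, and 1.59, 2.67, 1.81 and 2.01 in pod-2. They were 1.99, 1.97, 1.95 and 1.58 in dsc-4 and 1.51, 1.76, 1.42 and 1.85 in nuo-5. None of the regions of dsc-4 and nuo-5 thus reached a fold of 2. Of the 23 genes, 14 had a region with a fold of at least 2.

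In the ubiquitin, proteolysis and chaperone list, 17 of 75 genes (22.7%, 13.8 to 33.8) had a region, and the 34 regions had a median fold of 2.19. After hecd-1, the 4 regions of rle-1 had folds of 2.62, 4.21, 2.51 and 2.27, and the 3 of the astacin protease gene nas-30 had 2.68, 2.76 and 1.86. The 2 regions of nep-17, a neprilysin-type peptidase, had 2.50 and 2.15 from 171 and 196 reads. These 4 genes were named for their number of regions and then their fold. Of all 17 genes, 15 had a region with a fold of at least 2.

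Structural lists of muscle and matrix had smaller shares than these 3 lists, with wide intervals that overlap theirs, and both shares were above 8.58%. In the basement membrane and matrix list, 7 of 40 genes (17.5%, 7.34 to 32.8) had a region. Besides unc-52, these included the papilin gene mig-6, with folds of 2.60 and 2.26, and the peroxidase gene mlt-7, with 1.93. Among the 7, bli-4 entered by its name pattern and is also in the proteolysis list. The gene bli-4 is named here after its values were seen. A fold of at least 2 occurred in 2 of the 7 genes, against 153 of all 199 genes. In the muscle list, 4 of 26 genes (15.4%, 4.36 to 34.9) had a region. They were pat-3, the zyxin gene zyx-1, with 2.57 and 2.79, the calponin-related gene unc-87, with 1.79 and 1.81, and the paramyosin gene unc-15, with 1.58. In the actin, myosin and microtubule list, 5 of 52 genes (9.62%) had a region. The non-muscle myosin gene nmy-1 (F52B10.1) had folds of 2.55, 2.72, 1.68 and 2.05, and anc-1 (ZK973.6), a giant protein that anchors nuclei, had 2.15, 1.76 and 1.502.

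The chromatin, RNA, kinase and receptor signalling, and vesicle traffic lists lay between 9.33% and 11.96%. Chromatin and transcription machinery had 11 of 92 genes (11.96%), RNA binding, splicing, translation and RNA decay 11 genes (10.6%), and kinases, phosphatases and receptor signalling 13 of 123 (10.6%). In chromatin, epc-1 had 4.07, 2.55 and 2.35, the Mediator subunit gene mdt-15 had 2.27 and 1.65, and the nucleosome remodelling factor gene nurf-1 had 2.36. In the RNA list, ain-2, a GW182-type partner of microRNA Argonautes, had 2.69 and 3.18, the ataxin-2 gene atx-2 had 1.501 and 2.48, and the SR protein kinase gene spk-1 had 3.00 and 2.31. The gene with most regions of that list, pqn-87, entered it by its name pattern alone. Among signalling genes, the Gq alpha subunit gene egl-30 had 3.29 from 78 reads. The polarity kinase gene par-1 (H39E23.1) had 2.36, 1.85 and 2.14 over 33335 bp, the calcineurin gene tax-6 had 1.88 and 2.14, and the adenylyl cyclase gene acy-3 had 2.00 and 1.86. Vesicle traffic had 7 of 75 genes (9.33%), among them the COPII coat genes sec-23, with 3.29 and 2.21, and sec-31, with 2.35.

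In 4 lists the share was below 8.58%. Transcription factors and nuclear receptors had 6 of 110 genes (5.45%). They included tra-1, with folds of 1.95, 2.28 and 2.21, the FOXO gene daf-16, with 2.35 and 2.00, and the CREB gene crh-1 (Y41C4A.4), with 2.62 and 1.89. Ion channels, pumps and transporters had 6 of 136 (4.41%), led by mca-3 and by nkb-3, with 1.85, 1.501 and 3.11. Small GTPase regulators had 1 of 49 (2.04%, 0.0517 to 10.9), the GTPase gene rho-1 itself, with 2.17 and 2.14. Neuronal development and synaptic signalling had 1 of 156 (0.641%, 0.0162 to 3.52), sax-7 (C18F3.2), with 2.90, 2.35 and 2.76. The median span of the neuronal list, 7889 bp, was close to the 7917 bp of all long named genes. The L1-type adhesion protein of sax-7 is not made by neurons alone, since epidermal cells also carry it.

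Several genes with many regions were in no list. Besides egl-4, with folds of 2.19, 2.90, 1.62 and 2.43, and brc-1, these were ncl-1 (ZK112.2), a TRIM-NHL repressor of ribosomal RNA synthesis and nucleolar size, and pod-1 (Y76A2B.1), a coronin-like actin regulator. The 4 regions of ncl-1 had folds of 2.07, 2.52, 2.14 and 2.08, and those of pod-1 had 2.05 at most.

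By chromosome, III had the largest share of long named genes with a region, 48 of 404 (11.9%). The others were 29 of 333 (8.71%) on II, 34 of 398 (8.54%) on IV, 38 of 469 (8.10%) on I, 24 of 322 (7.45%) on V and 26 of 393 (6.62%) on X.

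Nearly all of the 368 regions lay wholly inside their gene. Of the 368, 366 did so and 7 touched a second protein-coding gene. The 26 regions shared equally with a second protein-coding gene had been set apart beforehand. The count of 7 leaves them out by construction and does not describe all regions that met the rule. A non-coding gene overlapped 39 (10.6%), of the general ncRNA class in 29 and of the piRNA class in 10. A snoRNA gene overlapped 4, in fln-1, let-607, pyk-1 and unc-70, and 0 summits lay inside one. The gene let-607 is named here after its values were seen.

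The 26 regions shared equally by 2 genes were of 2 kinds. In 12, the other gene was a cuticle collagen gene nested inside the long gene, such as col-92, col-93 and col-94 inside the dynein heavy chain gene dhc-4. These 12 had a median fold of 1.67 (1.17 to 2.17) over a median control level of 373. The dhc-4 regions had 1968, 3128 and 2999 reads, above the 628 of any of the 368 regions. In the other 14, the median fold was 2.15 over a median control level of 20.4, with the highest, 3.45 from 62 reads, in herc-1, a gene of the HERC ubiquitin ligase family, where it is shared with Y48G8AL.13. Without strand, reads of a host gene and of a gene inside it cannot be told apart. Genes of this paragraph were named after their values were seen.

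At the span limit of 5000 bp, the nearest genes inside were kola-3 (5021 bp), with folds of 3.30 and 1.92, top-1 (5053 bp), with 1.75, and wwp-1 (5079 bp), with 2.00. The nearest outside were sca-1 (4939 bp), with 1.70 and 1.64, txt-4 (4894 bp), with 2.69, and phy-2 (4891 bp), with 3.11, 3.73 and 3.13.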

How the data were processed

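The files analysed were 1 deposited list of regions and the RefSeq gene table of WBcel235 (46926 genes, 19983 protein-coding). STAR and deepTools are named, without versions, per the submitters' processing notes. Not given in the sources used here are the build, the peak caller, the control it used and how regions were judged strain-specific. The deposited columns follow the narrowPeak layout: a score (10 times the −log10 q rounded down in all 1207 regions), the authors' fold (a ratio over control), −log10 p and −log10 q, a summit offset, and an 11th column without a label.

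Positions were turned to 1-based and joined to genes with 1 shared base as the minimum. No build is named, and 1187 of the 1207 regions lay wholly inside a protein-coding gene of WBcel235. Summit reads and control level were solved from the authors' fold, taken as (reads + 1) / (control + 1), and the authors' −log10 p, taken as a Poisson probability. Reads came out within 0.02 of a whole number in 366 of 368 members (99.5%). Tested on simulated data, the solving recovered 99.7% of 798 summits under 300 reads and the join 100% of 500 planted regions. This does not test whether the caller used these formulas.

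The list holds no values per library, so the planned interaction of RIP over input between strains and its alternatives were not run. The p-values behind −log10 p are the authors'. Members and lists were chosen with earlier results of these data known. Named genes were those with at least 4 regions, the 12 with the highest fold, the 8 with the largest −log10 q, the 6 longest, those with a region wider than 3000 bp, up to 4 per list by number of regions and then fold, and the 3 nearest to the span limit on each side. Alternatives were other span limits, gene assignment, stricter thresholds, merging, and counting each gene once. Tables were made in Python 3.11.15 with pandas 2.3.3 and numpy 2.4.6, intervals with scipy 1.17.1 and figures with matplotlib 3.10.9.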

Additional observations from a re-analysis of the deposited data

Results flagged for a closer look

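The deposited list has an 11th column with no label, which no comparison above uses. It held a value above 0 in 56 of the 368 regions in long named genes (15.2%, exact 95% interval 11.7 to 19.3), where a count of 0 would allow up to 0.815%. The value was 2 in 2 of them. In the other 839 regions it was above 0 in 243 (28.96%), with a value of 2 in 10. Among the 368, regions above 0 had a median fold of 2.06 and a median of 76 reads, and regions at 0 had 2.16 and 38. Among the others the medians were 1.76 and 224 against 2.21 and 52. The sources used here do not say what this column holds.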

How the results depend on the processing

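No paired analysis was possible because no value per library is given, which also means that leaving out a replicate could not be tried. Counting the 26 shared regions, and limiting the lists to genes of at least 10000 bp, were chosen after seeing the data. Of 60 recomputed values besides those of single lists, 45 stayed within the stated limits (1.5 times for a count, the counting interval for other values) and 15 moved. Stricter limits left fewer regions by construction: 171 regions in 83 genes at a span of at least 10000 bp, 142 in 97 at a −log10 q of at least 5, and 240 regions at a fold of at least 2, where 60 genes had 2 or more and 5 had 4 or more. Merging regions under 500 bp apart left 9 genes with 4 or more, against 21. The middle part of the span held 37.7% of genes counted once by their mean position and 21.7% of genes with 1 region, against 26.9%; by mean position the middle held the most and not the fewest. The upper part held 34.7% by mean position, against 39.9%; a mean of several summits lies nearer the middle by construction. Taking only each gene's highest fold, the median fold was 2.28 and the median −log10 q 4.72. Above the control floor the median fold was 1.98 and the median reads 51. Lists above the background share numbered 10 in the main count and with shared regions, 7 with 2 or more regions required, 8 at a fold of at least 2 and 8 at 10000 bp. Single lists moved by over 1.5 times in 25 of 70 recomputed counts. Where no construction is named, the cause was not tested. At the control floor, where 142 members lie, the lowest fold was 1.86.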
